A study of Mus musculus with 48 samples.

Results

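The genes described are 8 nuclear receptors and leucine zipper factors that carry the output of the circadian clock and feed back on it: the REV-ERB receptors Nr1d1 and Nr1d2, the ROR receptors Rora and Rorb, the proline and acidic amino acid-rich (PAR) bZIP factors Dbp, Tef and Hlf, and the bZIP repressor Nfil3. They were chosen by name, and every probe whose RefSeq accession belongs to 1 of them was taken, which gave 15 probes. The array held 41174 probes, of which 27660 matched 1 of 18879 genes. All 15 probes were well above background on all 8 arrays of each group in both tissues, so none was lost to the filter on dim probes.

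In the mammalian clock the activators CLOCK and ARNTL (BMAL1) bind E-box sequences and switch on their own repressors, the PER and CRY proteins, together with the genes of the REV-ERB and PAR bZIP families. The REV-ERB proteins recruit the NCOR1 and HDAC3 corepressor complex to ROR elements and silence Arntl and Nfil3, whereas the ROR proteins activate through the same elements. DBP, TEF and HLF activate genes through D-box sequences, and NFIL3 competes with them there as a repressor. In brain, the PAR bZIP factors also control enzymes of vitamin B6 and neurotransmitter metabolism, and their abundance follows time of day.

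Frontal cortex and hypothalamus of 24 mice were each hybridized to a 1-color array, 48 arrays in all. The mice were homozygous for a human PER3 repeat region with 5 repeats (Per3 5/5, the line named Boxhill; n = 8) or with 4 repeats (Per3 4/4, the line named Coach; n = 8), or were wild type (WT; n = 8). All were kept awake for 12 h in the light phase before collection, so no rested group was compared and every difference between genotypes is one after sleep loss. Human exon 18, which codes for the repeats, replaced the mouse exon in every tissue from birth. Knock-in and WT mice were C57BL/6, came from crosses of the same conditional lines to a Cre strain, and no longer carried Cre; each knock-in genotype was a single line. The labels give neither age nor sex, and 1 time of day was sampled, so the phase of a rhythm cannot be told apart from its level. A level below is the log2 processed signal of a probe minus the log2 75th percentile of its array; levels of different probes are not comparable. A probe was called when its adjusted p in limma fell under 0.05, with Benjamini-Hochberg adjustment over all probes tested (29727 in cortex, 30751 in hypothalamus). In whole tissue, more cells of a type and more RNA per cell cannot be told apart.

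The arrays were scanned on 3 days that were not shared evenly by the genotypes. The 8 WT mice were scanned on day 2 (5 mice) and day 3 (3 mice), the Per3 5/5 mice on day 1 (4) and day 3 (4), and the Per3 4/4 mice on day 1 (4), day 2 (3) and day 3 (1). No slide held both Per3 5/5 and WT arrays. The median 75th percentile of the signal ran from 752.7 intensity units in Per3 4/4 cortex to 1522.1 in WT hypothalamus and was highest in WT in both tissues. The tissue labels were borne out, since all 6 cortical marker genes were lower and all 7 hypothalamic marker genes higher in hypothalamus in each genotype. Of 4 measured markers of the suprachiasmatic nucleus, the site of the central clock, 3 were higher in hypothalamus and 1 was lower in each genotype. In hypothalamus these 4 markers had a median log2 difference from WT of -0.49 in Per3 4/4 and -0.47 in Per3 5/5 mice. Six6 was called lower in both (-0.72 and -0.97), with scan day in the fit as well (-0.88 and -1.13), Lhx1 was called higher in Per3 5/5 mice (0.40) without scan day, and Vip and Prok2 were not called. What these markers contribute to the hypothalamic differences of the 8 genes was not tested.

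Sequence upstream of the transcription start is shown for the 5 genes called in at least 1 genotype comparison, because the clock reads these genes out through short promoter elements. The windows are the 250 bases before each start in RefSeq (build GRCm38.p6), written 5′ to 3′ on the strand of the gene, and both annotated starts of Tef are given. Capitals mark an E-box (CACGTG, the same on both strands), a D-box (TTATGTAA or TTACGTAA, both strands) or the core of a ROR element (AGGTCA, or TGACCT where it lies on the other strand). The Tef windows are chr15:81802423-81802672 and chr15:81811164-81811413 on the plus strand, the Dbp window is chr7:45704997-45705246 on the plus strand, the Nr1d1 window is chr11:98775378-98775627 on the minus strand, the Nr1d2 window is chr14:18239107-18239356 on the minus strand and the Nfil3 window is chr13:52981040-52981289 on the minus strand.
Tef window 1: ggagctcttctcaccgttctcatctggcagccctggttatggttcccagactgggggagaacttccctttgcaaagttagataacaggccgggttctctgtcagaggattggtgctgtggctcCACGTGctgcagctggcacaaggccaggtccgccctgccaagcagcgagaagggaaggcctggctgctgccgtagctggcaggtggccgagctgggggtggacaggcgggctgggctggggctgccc
Tef window 2: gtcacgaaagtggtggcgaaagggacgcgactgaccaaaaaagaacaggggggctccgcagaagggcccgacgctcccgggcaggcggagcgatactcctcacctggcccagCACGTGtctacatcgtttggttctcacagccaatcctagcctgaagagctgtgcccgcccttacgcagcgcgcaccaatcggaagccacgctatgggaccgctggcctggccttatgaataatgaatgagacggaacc
Dbp window: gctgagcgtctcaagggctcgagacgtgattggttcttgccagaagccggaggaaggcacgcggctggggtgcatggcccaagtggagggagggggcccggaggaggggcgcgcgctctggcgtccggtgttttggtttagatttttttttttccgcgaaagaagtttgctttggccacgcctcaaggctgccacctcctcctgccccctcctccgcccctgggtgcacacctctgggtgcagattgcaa
Nr1d1 window: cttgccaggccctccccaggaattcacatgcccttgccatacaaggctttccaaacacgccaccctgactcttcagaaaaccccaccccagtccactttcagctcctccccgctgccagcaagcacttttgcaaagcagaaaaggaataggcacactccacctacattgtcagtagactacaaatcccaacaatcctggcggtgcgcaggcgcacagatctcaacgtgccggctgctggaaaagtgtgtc
Nr1d2 window: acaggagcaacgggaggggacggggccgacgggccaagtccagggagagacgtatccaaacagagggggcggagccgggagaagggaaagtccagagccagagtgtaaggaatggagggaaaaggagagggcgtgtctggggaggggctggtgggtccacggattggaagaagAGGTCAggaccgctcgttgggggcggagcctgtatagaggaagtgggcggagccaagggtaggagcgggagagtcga
Nfil3 window: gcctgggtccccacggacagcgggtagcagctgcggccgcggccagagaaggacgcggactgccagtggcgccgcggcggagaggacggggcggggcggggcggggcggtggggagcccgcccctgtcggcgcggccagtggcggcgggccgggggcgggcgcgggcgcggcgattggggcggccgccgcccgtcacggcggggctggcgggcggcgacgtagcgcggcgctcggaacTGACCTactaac
Both Tef windows held an E-box, which began 127 bases before the first start and 138 bases before the second. The Nr1d2 window held AGGTCA 77 bases before its start, and the Nfil3 window held its reverse complement 12 bases before the start. No D-box lay in any of the 10 windows of the 8 genes, and the Dbp, Nr1d1, Hlf, Rora and Rorb windows held none of these letters. Among 32851 windows of the same length, 6.02% held the E-box, 0.931% the D-box and 14.0% the ROR core. Clock elements outside these windows were not searched, so the windows say nothing of the known intronic and more distant sites of Dbp and Nr1d1.

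In the hypothalamus of both knock-ins, probes of Tef, Dbp and Nr1d1 were called higher than in WT and probes of Nr1d2 and Nfil3 lower. In Per3 4/4 cortex Tef, Dbp and Nr1d1 were called higher and Nr1d2 lower, in Per3 5/5 cortex Tef alone was called, and Hlf, Rora and Rorb were called in neither tissue. In Per3 4/4 cortex, 5 of 15 member probes were called (4 higher, 1 lower; 4 genes), where 22.5% of all probes were called, 13.4% higher and 9.14% lower. In Per3 5/5 cortex 1 of 15 was called, higher, against 12.3% of all probes (8.44% higher, 3.91% lower). In hypothalamus 6 of 15 (4 higher, 2 lower; 5 genes) were called in Per3 4/4 mice, against 15.0% of all probes (8.24% higher, 6.81% lower). The Per3 5/5 hypothalamus also gave 6 of 15 (4 higher, 2 lower; 5 genes), against 18.8% of all probes (10.3% higher, 8.56% lower). The shares of member probes called in hypothalamus were thus above the share of all probes, the share in Per3 4/4 cortex was also above it, and that in Per3 5/5 cortex was below it. The median log2 difference of the 15 probes was 0.16 in Per3 4/4 cortex and 0.17 in Per3 5/5 cortex, and 0.08 and 0.09 in hypothalamus, beside 0.02, 0.06, 0.02 and 0.03 over all probes. Both knock-in comparisons use the same WT arrays. Centering the arrays on their median kept the direction of all 18 called differences but left 2 higher and 1 lower probe in Per3 4/4 cortex and 3 higher and 2 lower in the hypothalamus of each knock-in.

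**Figure D1:**
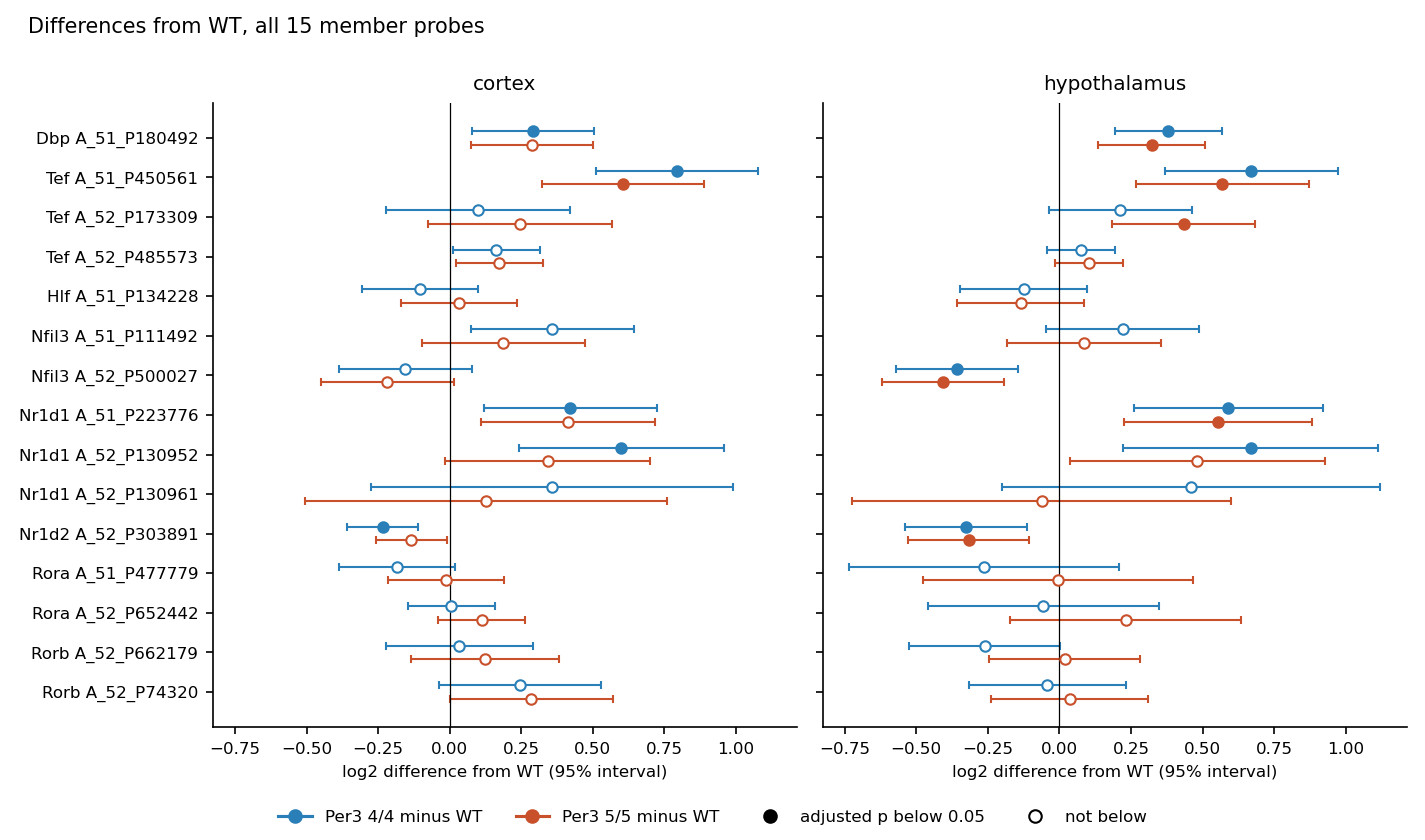
Log2 difference from WT with its 95% interval for all 15 member probes, in cortex (left) and hypothalamus (right), Per3 4/4 in blue and Per3 5/5 in red; filled points had an adjusted p under 0.05. Tef A_51_P450561 lies between 0.57 and 0.79 and is filled in all 4 comparisons, whereas Hlf, Rora and Rorb have open points throughout.

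The scan days moved with the genotypes, and with scan day as a term in the fit far fewer differences were called. Over all probes, 7.71% were then called in Per3 4/4 cortex, 0.986% in Per3 5/5 cortex, 0.745% in Per3 4/4 hypothalamus and 2.09% in Per3 5/5 hypothalamus. Of the 18 called differences of member probes, 2 stayed called, both in Per3 4/4 cortex: Tef A_51_P450561 at 0.59 (adjusted p = 0.0109) and Nr1d2 at -0.24 (adjusted p = 0.0326). All 18 kept their direction with scan day in the fit, and all 18 kept it on 1 scan day alone (3 Per3 4/4 and 5 WT mice, or 4 Per3 5/5 and 3 WT mice), where none was called. Several shrank by over 1.5 times with scan day in the fit. In Per3 4/4 cortex Nr1d1 A_51_P223776 went from 0.42 to 0.21, Nr1d1 A_52_P130952 from 0.60 to 0.32 and Dbp from 0.29 to 0.16. In hypothalamus Tef A_51_P450561 shrank to 0.44 in Per3 4/4 mice (0.67 without scan day) and to 0.34 in Per3 5/5 mice (0.57 without it), and Nr1d1 A_51_P223776 went from 0.55 to 0.27 in Per3 5/5 mice. The cortex gained 1 probe, Rorb A_52_P74320, at 0.61 (adjusted p = 0.0376) in Per3 5/5 and 0.45 (adjusted p = 0.0231) in Per3 4/4 mice. What scan day contributed to the differences without it was not tested further.

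**Figure D2:**
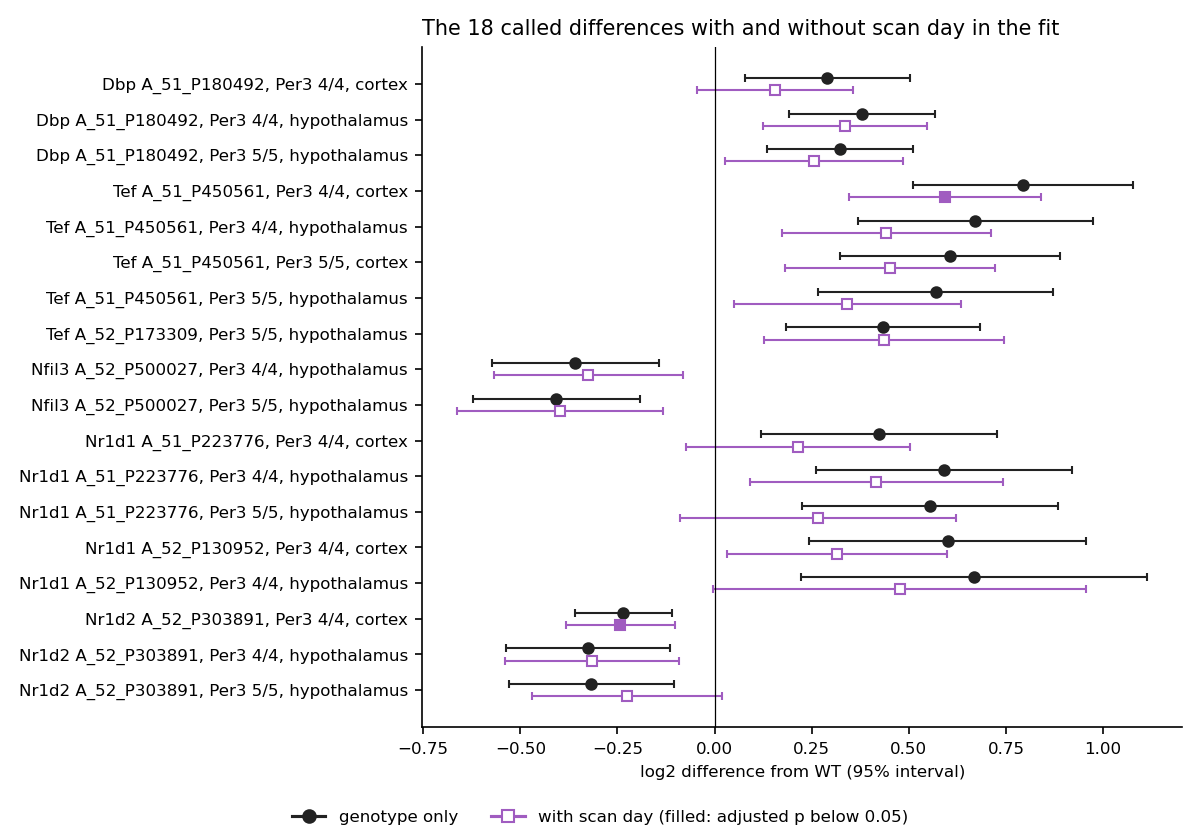
Log2 difference from WT with its 95% interval for the 18 called differences, from the fit with genotype only (black circles) and with scan day added (purple squares, filled where the adjusted p stayed under 0.05). Every square lies on the same side of 0 as its circle, and 2 squares are filled, Tef A_51_P450561 at 0.59 and Nr1d2 at -0.24, both in Per3 4/4 cortex.

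Tef encodes thyrotroph embryonic factor, a D-box activator first known from the pituitary and rhythmic in most tissues. Its probe A_51_P450561 ran from -2.43 to -2.02 (median -2.19) in WT cortex, from -1.80 to -1.05 (median -1.44) in Per3 4/4 cortex and from -2.20 to -1.27 (median -1.37) in Per3 5/5 cortex. All 8 Per3 4/4 arrays lay above all 8 WT arrays, as did 6 of 8 Per3 5/5 arrays. The log2 difference from WT was 0.79 ± 0.14 (SE; adjusted p = 0.00129) in Per3 4/4 and 0.60 ± 0.14 (adjusted p = 0.00967) in Per3 5/5 cortex, or 1.73-fold and 1.52-fold.

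In hypothalamus the same Tef probe ran from -2.97 to -2.29 (median -2.58) in WT, from -2.52 to -1.56 (median -1.89) in Per3 4/4 and from -2.46 to -1.54 (median -1.92) in Per3 5/5 mice. The knock-in groups overlapped WT by 1 and 2 arrays, with 7 of 8 and 6 of 8 arrays above every WT array. The differences were 0.67 ± 0.15 (adjusted p = 0.00926) and 0.57 ± 0.15 (adjusted p = 0.0111). Within Per3 5/5 cortex, the 4 arrays of scan day 1 averaged -1.33 and the 4 of day 3 averaged -1.88, and the WT arrays of days 2 and 3 averaged -2.14 and -2.33. On day 3 alone the Per3 5/5 cortex arrays still averaged above WT, and with scan day in the fit the difference was 0.45 (adjusted p = 0.0716).

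The other probes of Tef moved less. Tef A_52_P173309 was called in Per3 5/5 hypothalamus (0.43 ± 0.12, adjusted p = 0.0170), where it ran from -2.61 to -1.78 (median -2.36) against -3.10 to -2.45 (median -2.77) in WT, and in no other genotype comparison. The brightest Tef probe, A_52_P485573, ran from 3.62 to 4.05 (median 3.72) in Per3 4/4, from 3.62 to 4.03 (median 3.79) in Per3 5/5 and from 3.41 to 3.75 (median 3.62) in WT cortex. Its differences were 0.16 (adjusted p = 0.112) and 0.17 (adjusted p = 0.115) in cortex and 0.08 and 0.10 in hypothalamus, all higher and none called. Across the 24 arrays of a tissue, residuals of these 3 probes after genotype and scan day correlated at r = 0.22 to 0.64, given as a description. The transcript variants that each probe detects were not used here, so a difference between the 2 annotated starts could not be read from these probes.

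Dbp, a D-box activator whose rhythm is among the strongest in the clock, was higher in knock-in hypothalamus. Its single probe ran from 4.48 to 5.14 (median 4.61) in WT, from 4.88 to 5.24 (median 5.07) in Per3 4/4 and from 4.75 to 5.20 (median 5.03) in Per3 5/5 hypothalamus. The groups overlapped, since WT replicate 7 lay at 5.14, and 2 of 8 arrays of each knock-in were above every WT array. The differences were 0.38 ± 0.09 (adjusted p = 0.0128) in Per3 4/4 and 0.32 ± 0.09 (adjusted p = 0.0180) in Per3 5/5 mice, or 1.30-fold and 1.25-fold. In cortex Dbp ran from 4.63 to 5.16 (median 5.07) in WT, from 4.97 to 5.56 (median 5.33) in Per3 4/4 and from 4.81 to 5.62 (median 5.32) in Per3 5/5 mice. Both cortical differences were 0.29, with adjusted p = 0.0456 in Per3 4/4 and 0.0666 in Per3 5/5 mice. The Per3 4/4 cortex call was lost when any 1 of 14 mice was left out (Per3 5/5 replicates 5 and 6, Per3 4/4 replicates 1 to 4 and 7, WT replicates 1, 2 and 4 to 8), with adjusted p up to 0.0965.

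Hlf, a PAR bZIP factor abundant in brain, liver and kidney, was not called in any genotype comparison. Its 4 differences from WT lay between -0.14 and 0.03. In cortex it ran from 2.84 to 3.32 (median 3.08) in WT, from 2.65 to 3.24 (median 3.0) in Per3 4/4 and from 2.69 to 3.31 (median 3.12) in Per3 5/5 mice, and the ranges overlapped almost wholly.

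Nfil3, the repressor that shares D-boxes with the PAR bZIP factors, was lower in knock-in hypothalamus on its brighter probe. A_52_P500027 ran from 0.28 to 1.16 (median 0.56) in WT, from -0.10 to 0.48 (median 0.32) in Per3 4/4 and from 0.08 to 0.40 (median 0.19) in Per3 5/5 hypothalamus. The groups overlapped, with 3 of 8 Per3 4/4 and 5 of 8 Per3 5/5 arrays below every WT array. The probe fell by 0.36 ± 0.10 (SE; adjusted p = 0.0264) in Per3 4/4 and by 0.41 ± 0.10 (adjusted p = 0.0105) in Per3 5/5 mice. The Per3 4/4 call was lost without Per3 4/4 replicate 1 or 2 (adjusted p up to 0.0630). In cortex the same probe differed by -0.15 and -0.22 and was not called. The second probe, A_51_P111492, pointed the other way, at 0.36 in Per3 4/4 cortex (adjusted p = 0.0624), 0.22 in Per3 4/4 hypothalamus, 0.19 in Per3 5/5 cortex and 0.09 in Per3 5/5 hypothalamus, none called. With scan day in the fit it was at 0.17 in Per3 4/4 cortex, -0.01 in Per3 4/4 hypothalamus, -0.06 in Per3 5/5 cortex and -0.13 in Per3 5/5 hypothalamus, so the opposite direction held in Per3 4/4 cortex alone. Residuals of the 2 Nfil3 probes correlated at r = 0.39 in cortex and 0.18 in hypothalamus, so the direction for Nfil3 rests on 1 probe.

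**Figure D3:**
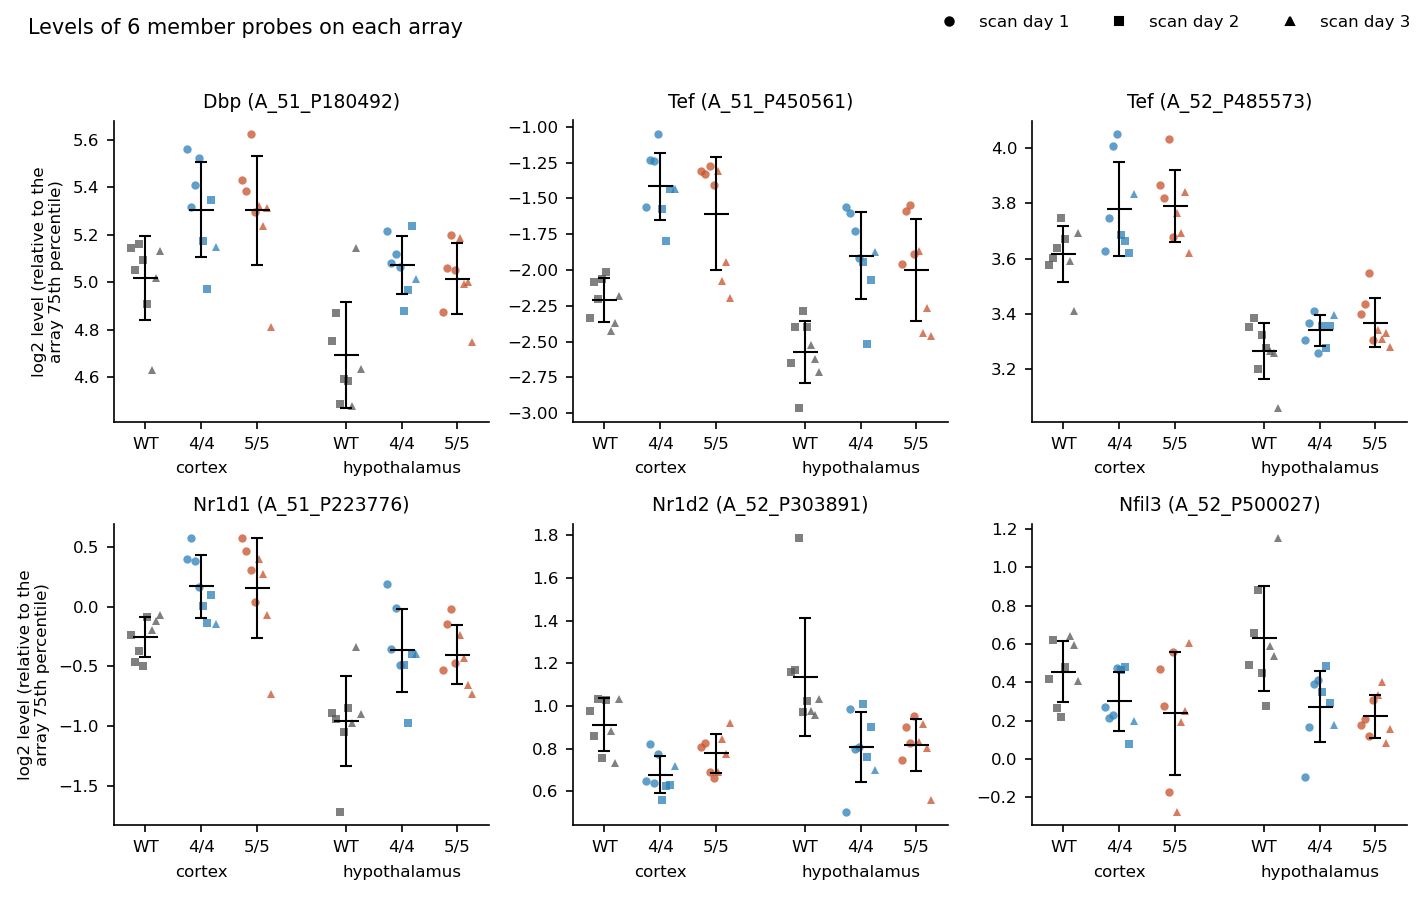
Log2 level of 6 member probes on each array, relative to the 75th percentile of the array, by genotype and tissue; symbols give the scan day, and bars the mean ± SD of 8 arrays. Tef A_51_P450561 in Per3 4/4 cortex lies between -1.80 and -1.05, above all WT arrays, and Nr1d2 in Per3 5/5 hypothalamus lies between 0.56 and 0.95, below all WT arrays.

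The REV-ERB genes moved in opposite directions. Nr1d1, which encodes the heme-binding repressor REV-ERBα, was higher on its brightest probe in the hypothalamus of both knock-ins and in Per3 4/4 cortex. A_51_P223776 ran from -1.71 to -0.34 (median -0.92) in WT, from -0.98 to 0.19 (median -0.40) in Per3 4/4 and from -0.73 to -0.02 (median -0.45) in Per3 5/5 hypothalamus. The groups overlapped, with 2 and 3 of 8 knock-in arrays above every WT array. The differences were 0.59 ± 0.16 (SE; adjusted p = 0.0205) and 0.55 ± 0.16 (adjusted p = 0.0201), or 1.51-fold and 1.47-fold. In cortex it ran from -0.50 to -0.07 (median -0.21) in WT, from -0.14 to 0.57 (median 0.13) in Per3 4/4 and from -0.73 to 0.58 (median 0.29) in Per3 5/5 mice. The cortical difference was 0.42 (adjusted p = 0.0418) in Per3 4/4 and 0.41 (adjusted p = 0.0651) in Per3 5/5 mice. The Per3 4/4 cortex call was lost without any 1 of Per3 4/4 replicates 1 to 4 or WT replicates 1 to 4 and 6 (adjusted p up to 0.0861).

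A second Nr1d1 probe, A_52_P130952, separated Per3 4/4 from WT cortex completely, at -2.43 to -1.91 (median -2.16) against -2.94 to -2.56 (median -2.77). The difference was 0.60 ± 0.17 (adjusted p = 0.0169), and in Per3 4/4 hypothalamus it was 0.67 ± 0.22 (adjusted p = 0.0401). The hypothalamic call was lost without any 1 of Per3 4/4 replicates 1 to 5 or WT replicates 1, 3, 4, 6 and 8 (adjusted p up to 0.0813). In Per3 5/5 mice this probe differed by 0.34 and 0.48 and was not called. The third Nr1d1 probe, A_52_P130961, spanned -5.06 to -2.01 over all arrays and was not called, with differences of 0.36 in Per3 4/4 cortex, 0.13 in Per3 5/5 cortex, 0.46 in Per3 4/4 hypothalamus and -0.06 in Per3 5/5 hypothalamus. With scan day in the fit these were -0.07, 0.02, -0.07 and -0.34, so both Per3 4/4 values turned direction. The level of this probe moved with scan day within a genotype, from a mean of -2.82 on day 1 to -4.31 on day 3 in Per3 5/5 hypothalamus.

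Nr1d2 encodes REV-ERBβ, which acts at the same sites as REV-ERBα, and its single probe was lower in the hypothalamus of both knock-ins and in Per3 4/4 cortex. It ran from 0.96 to 1.79 (median 1.03) in WT, from 0.50 to 1.01 (median 0.80) in Per3 4/4 and from 0.56 to 0.95 (median 0.83) in Per3 5/5 hypothalamus. All 8 Per3 5/5 arrays lay below all 8 WT arrays, as did 6 of 8 Per3 4/4 arrays. It fell by 0.33 ± 0.10 (SE; adjusted p = 0.0361) in Per3 4/4 and by 0.32 ± 0.10 (adjusted p = 0.0342) in Per3 5/5 mice. WT replicate 3, at 1.79, stood apart from the next WT array at 1.17. The Per3 4/4 call was lost without any 1 of Per3 4/4 replicates 1, 3, 4 and 8 or WT replicates 1 and 2 (adjusted p up to 0.0841), and the Per3 5/5 call without any 1 of Per3 5/5 replicates 1, 3 and 8 or WT replicates 1 and 2 (adjusted p up to 0.0673); neither was lost without WT replicate 3. In cortex Nr1d2 ran from 0.73 to 1.03 (median 0.93) in WT and from 0.56 to 0.82 (median 0.64) in Per3 4/4 mice, and it fell by 0.23 ± 0.06 (adjusted p = 0.00933), a call kept in all 24 fits that left out 1 mouse. In Per3 5/5 cortex it ran from 0.66 to 0.92 (median 0.79) and differed by -0.13 (adjusted p = 0.132).

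Groups that did not overlap at all were therefore few: 2 of 15 member probes in Per3 4/4 cortex, where 6.70% of all probes did not overlap, 1 in Per3 5/5 hypothalamus (2.66%), and 0 in Per3 5/5 cortex (1.14%) and Per3 4/4 hypothalamus (1.86%).

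Neither ROR gene was called against WT. Rora encodes a receptor that drives Arntl and is abundant in cerebellum and thalamus, and Rorb encodes a receptor of sensory cortex, thalamus and retina. Rora A_52_P652442 ran from 0.54 to 1.01 (median 0.85) in WT, from 0.54 to 1.0 (median 0.80) in Per3 4/4 and from 0.75 to 1.12 (median 0.90) in Per3 5/5 cortex, and its 4 differences from WT lay between -0.06 and 0.23. Rora A_51_P477779 gave differences of -0.19, -0.01, -0.26 and -0.00. Rorb A_52_P662179 ran from 0.43 to 1.04 (median 0.72) in WT cortex, from 0.41 to 1.22 (median 0.75) in Per3 4/4 and from 0.37 to 1.38 (median 0.80) in Per3 5/5 cortex. In hypothalamus it was at -0.23 to 0.32 (median 0.06) in Per3 4/4 mice, against -0.08 to 0.58 (median 0.37) in WT, a difference of -0.26 with adjusted p = 0.155. Rorb A_52_P74320 differed by 0.29 (Per3 5/5) and 0.24 (Per3 4/4) in cortex and was called there only with scan day in the fit, as given above.

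The question behind both knock-ins is whether the number of repeats matters, and no member probe was called between the 2 knock-in genotypes. No probe on the array was called in either tissue (0%) with limma, and the 2 groups overlapped for all 15 member probes, where 0.0370% of all probes in cortex and 0.0260% in hypothalamus did not. At an unadjusted p under 0.05, 0 member probes passed in cortex and 1 in hypothalamus, Rorb A_52_P662179 at 0.28 (95% interval 0.02 to 0.54; adjusted p = 0.290). The 15 differences lay between -0.26 and 0.17 in cortex and between -0.52 and 0.29 in hypothalamus. For Dbp the difference was -0.00 (interval -0.22 to 0.21) in cortex and -0.06 (-0.25 to 0.13) in hypothalamus, for Tef A_51_P450561 it was -0.19 (-0.47 to 0.09) and -0.10 (-0.40 to 0.20), and for Nr1d2 it was 0.10 (-0.02 to 0.22) and 0.01 (-0.20 to 0.22). For Nr1d1 A_51_P223776 it was -0.01 (-0.31 to 0.29) and -0.04 (-0.37 to 0.29), and for Nfil3 A_52_P500027 it was -0.06 (-0.30 to 0.17) and -0.05 (-0.26 to 0.17). These intervals leave room for differences as large as several of those from WT.

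In each genotype, 8 or 9 of the 15 member probes differed between hypothalamus and cortex, nearly all lower in hypothalamus. WT mice gave 9 calls (1 higher, 8 lower; 6 genes), against 51.9% of all probes (28.1% higher, 23.8% lower). Per3 5/5 mice gave 9 (1 higher, 8 lower; 6 genes), against 50% (25.6% higher, 24.4% lower), and Per3 4/4 mice gave 8, all lower (5 genes), against 51.1% (27.1% higher, 24.1% lower). The share of member probes called was near that of all probes, while the share called lower was above it in each genotype. The median difference of the 15 probes was -0.35 for WT mice, -0.43 for Per3 4/4 mice and -0.40 for Per3 5/5 mice, beside 0.03, 0.02 and -0.02 over all probes.

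Hlf differed most between the tissues among the brightest probes of the 8 genes. In hypothalamus it ran from 1.73 to 2.57 (median 1.91) in WT, from 1.70 to 2.08 (median 1.87) in Per3 4/4 and from 1.66 to 2.19 (median 1.78) in Per3 5/5 mice, and every hypothalamus array lay below every cortex array of its genotype. The difference was -1.06 (95% interval -1.27 to -0.85; adjusted p = 2.49e-12) in WT, -1.08 (adjusted p = 1.38e-12) in Per3 4/4 and -1.23 (adjusted p = 2.78e-14) in Per3 5/5 mice, about 0.48-fold, 0.47-fold and 0.43-fold. Tef A_52_P485573 also did not overlap between the tissues in any genotype, at 3.06 to 3.38 (median 3.27) in WT hypothalamus, and differed by -0.35 in WT mice, by -0.44 in Per3 4/4 mice and by -0.42 in Per3 5/5 mice (largest adjusted p = 4.67e-06). All 3 Tef probes were lower in hypothalamus in all genotypes. Member probes whose tissues did not overlap numbered 3 in WT (28.0% of all probes), 3 in Per3 4/4 (26.0%) and 2 in Per3 5/5 mice (20.6%).

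Nr1d1 A_51_P223776 was lower in hypothalamus by 0.70 to 0.53 on the log2 scale, at -0.70 in WT (adjusted p = 0.000161), -0.53 in Per3 4/4 and -0.56 in Per3 5/5 mice. In the same order, Nr1d1 A_52_P130952 was at -0.50, -0.43 and -0.36 and was called in WT alone (adjusted p = 0.0339). Nr1d1 A_52_P130961 was at -0.45, -0.34 and -0.64 and was not called. Rorb A_52_P662179 was at -0.39, -0.68 and -0.49 in the same order, and Rorb A_52_P74320 was called in both knock-ins (-0.56 and -0.52) but not in WT (-0.27, adjusted p = 0.0948). Dbp was at -0.32, -0.23 and -0.29, with adjusted p between 0.00383 and 0.0374. The Dbp difference shrank to -0.10 (adjusted p = 0.404) in Per3 4/4 and -0.16 (adjusted p = 0.171) in Per3 5/5 mice with quantile normalization. The 2 higher calls were Nr1d2 in WT mice (0.22, adjusted p = 0.0203) and Rora A_52_P652442 in Per3 5/5 mice (0.40, adjusted p = 0.0234). Both were lost when arrays were centered on their median (0.13, adjusted p = 0.321, and 0.35, adjusted p = 0.059). Nfil3 differed by -0.03 to 0.17 and was not called.

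**Figure D4:**
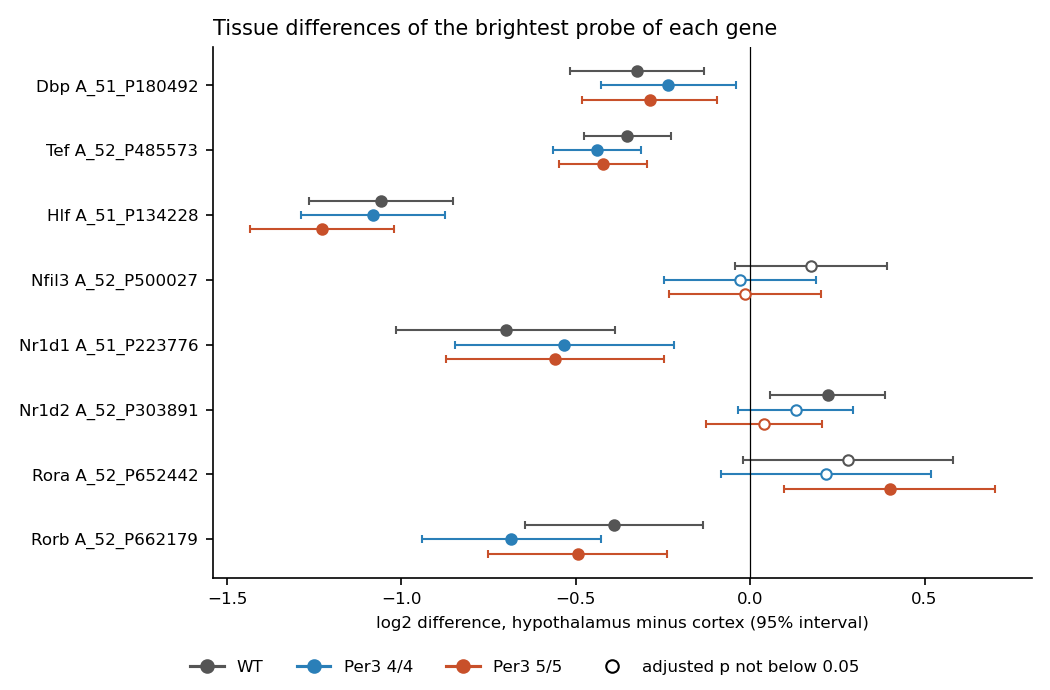
Log2 difference between hypothalamus and cortex with its 95% interval for the brightest probe of each of the 8 genes, by genotype; open points had an adjusted p of 0.05 or more. Hlf lies at -1.06 to -1.23 in all 3 genotypes, and Nfil3 lies near 0 with open points.

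No member probe was called for a genotype difference that differed between the tissues. The interaction called 0 of 15 in each of the 3 genotype pairs with limma, and at an unadjusted p under 0.05 it also gave 0. Over all probes it called 0.00320% for Per3 4/4 against WT, 0.0160% for Per3 5/5 against WT and 0% for Per3 5/5 against Per3 4/4. The interaction estimates of the members lay between -0.29 and 0.19, so calls of Dbp, Nr1d1 and Nr1d2 in 1 tissue and not the other were not shown to differ between tissues.

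Both tissues of a mouse were measured, which allowed the levels to be compared across the 24 mice with Pearson's r, using 100000 permutations per gene. For all 24 mice both arrays lay on the same slide and were scanned on the same day. What the slide contributes to these correlations was not tested. Dbp correlated between cortex and hypothalamus at r = 0.70 (rho = 0.71; permutation p = 0.0001), Nr1d1 at r = 0.71 (rho = 0.74; permutation p = 0.0001) and Nr1d2 at r = 0.51 (rho = 0.49; permutation p = 0.00855). Adjusted over 30929 probes these gave 0.00103, 0.000724 and 0.0284, and 3 of 8 genes were called, where 48.4% of all probes were. Tef gave r = 0.46 (adjusted p = 0.0521), Rorb 0.43 (0.0717), Nfil3 0.28 (0.256), Hlf -0.02 (0.928) and Rora -0.14 (0.599). The median r of the 8 genes was 0.44, beside 0.447 over all probes. These correlations hold genotype, scan day and slide within them. After genotype and scan day were removed, but not slide, 0 of 8 was called (2.72% of all probes). Residual r was 0.52 for Dbp (permutation p = 0.00894; adjusted p = 0.163), 0.38 for Nr1d1 (adjusted p = 0.352) and 0.25 for Nr1d2 (adjusted p = 0.578), and the median was 0.226 beside 0.221. Leaving out the 2 mice farthest from the cortical median gave r = 0.59 for Dbp, 0.81 for Nr1d1 and 0.32 for Nr1d2. For Nr1d2 the permutation p was then 0.148, so its relation was weaker without those mice. Within scan days 1, 2 and 3, with 8 mice each, r was 0.50, 0.48 and 0.73 for Dbp, 0.16, 0.70 and 0.52 for Nr1d1, and 0.40, 0.67 and 0.23 for Nr1d2.

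Rora and Hlf varied between hypothalamus arrays together with markers of the thalamus, which lies next to the hypothalamus. The summed signal of 5 thalamic markers (Prkcd, Tcf7l2, Ramp3, Tnnt1 and Lef1, in units of the 75th percentile of the array) ran from 3.75 to 28.4 (median 9.24) in WT, from 4.39 to 18.4 (median 8.37) in Per3 4/4 and from 4.08 to 25.8 (median 9.19) in Per3 5/5 hypothalamus. All 5 were well above background on every array, and in cortex the sums ran only from 3.86 to 6.76. In each genotype 2 of the 5 were called higher in hypothalamus than in cortex and 0 lower. Signals were added before the log2 was taken, so the brightest markers weigh most in the sum. What each marker contributes to the relations below was not tested. Rora A_52_P652442 spanned 0.44 to 1.84 in WT and 0.73 to 2.01 in Per3 5/5 hypothalamus, far more than in cortex. In Per3 4/4 mice the spread was alike, at 0.80 to 1.26 in hypothalamus and 0.54 to 1.0 in cortex. Over 24 arrays the probe followed the log2 sum at r = 0.90 (rho = 0.91, permutation p = 1e-05, the smallest that 100000 resamples can give). Hlf followed it at r = 0.81 (rho = 0.78; permutation p = 1e-05). These were 2 of 24 relations computed between the 8 genes and 3 marker lists, chosen after the values were seen, and both had an adjusted p of 0.00012. Without the 2 arrays farthest from the median of the sum, r was 0.86 for Rora and 0.78 for Hlf. After genotype and scan day it was 0.93 and 0.80, and within scan days 1, 2 and 3 it was 0.83, 0.94 and 0.96 for Rora and 0.22, 0.83 and 0.94 for Hlf. The sums overlapped between genotypes. What the thalamic markers contribute to the level of either gene, to the tissue differences or to the Rora call in Per3 5/5 mice, was not tested.

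**Figure D5:**
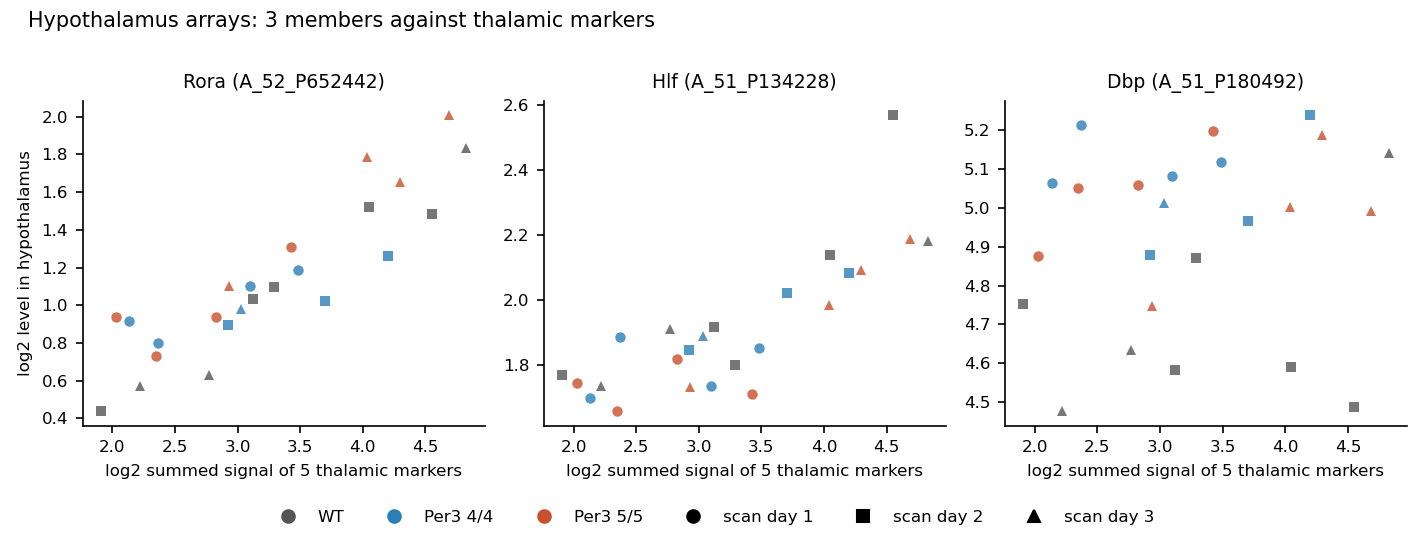
Log2 level of Rora, Hlf and Dbp on the 24 hypothalamus arrays against the log2 summed signal of 5 thalamic markers; color gives the genotype and symbol the scan day. Rora and Hlf climb with the markers (r = 0.90 and 0.81), and for Dbp r is 0.15.

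Other marker lists touched the members that differed from WT. Dbp followed the summed signal of 6 oligodendrocyte markers in hypothalamus at r = 0.65 (rho = 0.59; permutation p = 0.00063; adjusted p = 0.00504 over the 24 relations), and at r = 0.28 (adjusted p = 0.396) after genotype and scan day. Those sums ran from 173.3 to 254.7 (median 206.0) in WT, from 230.6 to 324.2 (median 276.8) in Per3 4/4 and from 211.1 to 269.0 (median 248.8) in Per3 5/5 hypothalamus. All 6 oligodendrocyte markers were called higher in Per3 4/4 and 3 of 6 in Per3 5/5 hypothalamus, and with scan day in the fit 2 and 0 were. For the brightest probes of the other genes with calls in hypothalamus, r against the same sum was -0.50 for Nr1d2 (rho = -0.71; adjusted p of r = 0.0541), -0.49 for Nfil3 and 0.48 for Nr1d1 (adjusted p = 0.0601 each) and 0.43 for Tef A_52_P485573 (adjusted p = 0.0807). After genotype and scan day these were -0.07, -0.08, -0.02 and 0.31. The part of the oligodendrocyte markers in the differences of these genes from WT was not tested. Tef A_52_P485573 followed 5 pituitary markers at r = -0.64 (rho = -0.42; permutation p = 0.00274; adjusted p = 0.0164), but at -0.28 (permutation p = 0.207) without the 2 arrays farthest from the median, WT replicate 8 being at a sum of 744.9. After genotype and scan day it was -0.56 (adjusted p = 0.0305), and within scan days 1, 2 and 3 it was -0.66, -0.40 and -0.80. Dbp followed the thalamic sum at r = 0.15 (adjusted p = 0.630).

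The members were set beside 23 other genes of the clock, taken as 1 probe a gene: activators, repressors, the kinases and ubiquitin ligases that act on PER and CRY, partners of the REV-ERB and ROR receptors, and targets of the PAR bZIP factors. In Per3 4/4 cortex 5 were called higher and 3 lower, in Per3 5/5 cortex 5 higher and 0 lower, in Per3 4/4 hypothalamus 2 higher and 2 lower, and in Per3 5/5 hypothalamus 6 higher and 1 lower, where 22.5%, 12.3%, 15.0% and 18.8% of all probes were called. The 4 of 23 in Per3 4/4 hypothalamus were near that background. With scan day in the fit, 2, 1, 0 and 1 were called in the same order, beside 7.71%, 0.986%, 0.745% and 2.09% of all probes. Those in cortex were repressors, and that in hypothalamus was of the kinases and ubiquitin ligases. No activator and no partner of the REV-ERB and ROR receptors was called with scan day, so the values below are from the fit without it. Among REV-ERB partners, the corepressor Ncor1 (0.34, adjusted p = 0.0381) and its deacetylase Hdac3 (0.24, adjusted p = 0.0153) were higher in Per3 5/5 hypothalamus, and the ROR coactivator Ppargc1a was lower in Per3 4/4 cortex (-0.38, adjusted p = 0.0494). Of the activators of E-boxes, Clock was lower in Per3 4/4 cortex (-0.31) and hypothalamus (-0.44), Npas2, which can replace it in forebrain, was higher in Per3 5/5 cortex (0.35), and Arntl was not called. Among the repressors, Bhlhe41 was higher in all 4 comparisons (0.30 to 0.49), Cry2 in 3, Per1 in Per3 5/5 cortex (0.28), and Ciart was lower in Per3 4/4 cortex (-0.75). The targeted gene Per3 was called higher in both knock-in cortices (0.69 in Per3 5/5, 0.41 in Per3 4/4) and in Per3 5/5 hypothalamus (0.47); which exon its probe detects was not examined. Of the D-box targets Pdxk, an enzyme of vitamin B6 metabolism, and Usp2, a deubiquitinase, neither was called in any genotype comparison. The remaining calls were Gsk3b (0.37 in Per3 4/4 cortex, 0.36 in Per3 5/5 hypothalamus), Btrc (0.52 and 0.66 in Per3 4/4 cortex and hypothalamus) and Fbxl21 (-0.51 in Per3 5/5 and -0.29 in Per3 4/4 hypothalamus). None of the 23 was called between the knock-in genotypes.

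After genotype and scan day were removed, the members varied together in part, given here as means of r over both tissues with 24 arrays each and with no test, since all genes of an array share its RNA and scan. Dbp and Nr1d1 had a mean r of 0.56, which put Nr1d1 at rank 24 of 30928 probes in likeness to Dbp, while Dbp was at rank 959 in likeness to Nr1d1. Hlf and Rora had 0.59, which put Hlf at rank 35 in likeness to Rora and Rora at rank 176 in likeness to Hlf. Nfil3 A_52_P500027 ran against Nr1d1 (-0.46), Tef (-0.44) and Dbp (-0.41) and with Nr1d2 (0.33), and Nr1d1 ran against Nr1d2 (-0.24). Some of these were uneven between tissues. For Nfil3 with Dbp, r was -0.67 in cortex and -0.15 in hypothalamus, and for Nfil3 with Nr1d2 it was 0.11 and 0.54. For Nr1d1 with Nr1d2 it was -0.04 and -0.44. The genes most like Dbp were Gpr146 (0.70), Zbtb7b (0.68) and Apobr (0.68), and those most like Nr1d1 were Tmem86a (0.83), Aspscr1 (0.82) and Olfm2 (0.80). Those most like Nr1d2 were Ell2 (0.76), Zfp947 (0.75) and 0610010F05Rik (0.75), those most like Tef were B4galt2 (0.67), Thrsp (0.65) and Prelid3a (0.64), and those most like Nfil3 were Wdr46 (0.75), Vps35 (0.73) and Slc30a5 (0.73).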

How the data were processed

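The authors deposited the Agilent Feature Extraction output of each array (version 10.7.1.1, array design 014868, annotation build mm9) together with a series table. The processed signal is, per the file headers, a linear intensity after background subtraction and detrending within the array, not scaled between arrays. The deposited files add raw median intensities and other columns of 0 or 1 that mark spots as bright enough, saturated or outlying. In the series table the authors gave log2 values shifted to the 75th percentile in GeneSpring; after centering each probe on its tissue median, the values computed here came within 0.05 of them for 99.93% of cortex and 99.91% of hypothalamus entries. The depth of an array is not a read count, and the number of arrays limits the precision.

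Here each spot's processed signal was divided by the 75th percentile over the 43379 non-control spots on that array and put on the log2 scale. Outlier spots (48 to 172 per array) were set to missing; no spot was saturated. Testing required that 1 group or more have the probe well above background on 6 or more of its 8 arrays. Probes were matched to genes through their RefSeq accession in a RefSeq table of GRCm38.p6, which is not the array's build, so no probe coordinate is given; promoter windows came from the same RefSeq release.

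For genotypes, limma 3.58.1 (lmFit, then eBayes; two-sided tests; R 4.3.3) was fitted to the 24 arrays of a tissue with 3 group means. Tissues were compared on all 48 arrays (31242 probes tested), also with the mouse as a block. Correlations used scipy 1.17.1, permutation tests of 100000 resamples, and within a scan day exact permutations of 8 mice; adjustment over all probes used the t approximation. Both tissues of a mouse shared a mouse label and deviated together (r = 0.109 to 0.688, 24 of 24 over 0.1). These deviations were from group means, with neither slide nor scan day removed. Both arrays of a mouse also shared slide and scan day, so these cannot be told apart from the mouse in that r. The tissues of a mouse were paired in the correlations and in the fit with the mouse as a block. The tissue and interaction values printed come from the fit without a mouse term. With the mouse as a block, all 26 called tissue differences stayed called. Equal replicate numbers of different genotypes did not pair mice, but replicates 1 to 4 of Per3 5/5 and Per3 4/4 shared a slide number by number. Slide (12 slides of 4 arrays) and scan day came from the file headers. The fits were tested on simulated data with known differences.

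The genes, the 23 clock genes, the marker lists and the tests were chosen with earlier results of these data known, so none counts as independent evidence. All member probes were to be named; the brightest tested probe stood for a gene in lists and correlations, clock genes were named where called, and the 3 most alike genes were named for members called against WT. The marker relations were chosen after the values were seen. Alternatives were normexp (offset 50, on median intensities, as no mean intensity was among the columns), quantile normalization, centering on the median, no filter, outliers kept, the series table, 2 genotypes per fit, the 2-group test of the methods, replicate, scan day and slide blocks, 1 scan day, and each mouse left out.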

Additional observations from a re-analysis of the deposited data

Results flagged for a closer look

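In 4 of 90 groups of 8 arrays, 1 array stood apart from the rest of its group by more than Dixon's 95% critical value for 8 arrays; chance gives about 1 in 20, or 5% of groups. Dbp in WT cortex replicate 6 lay at 4.63, with the nearest array at 4.91. Hlf in Per3 5/5 cortex replicate 4 lay at 2.69, with the nearest at 3.03. Nr1d2 in WT hypothalamus replicate 3 lay at 1.79, above the nearest at 1.17, and the same array gave the highest Hlf level (2.57) and the lowest Nr1d1 A_51_P223776 level (-1.71) of its group, with a thalamic marker sum of 23.4. Rorb A_52_P74320 in Per3 4/4 hypothalamus replicate 8 lay at -1.86, with the nearest at -2.62. No genotype difference of a member was called as differing between the tissues by the interaction test.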

How the results depend on the processing

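All 18 called genotype differences and all 26 called tissue differences kept their direction under every alternative run. Of the 18, the call was kept for 18 with the series table, with outlier spots kept and with the replicate block, for 16 with quantile normalization, with 2 genotypes per fit and with the 2-group test of the methods, for 14 with centering on the median and with slide as a random block, for 13 with normexp and with no filter, for 2 with scan day as a block, and for 0 with slide as a fixed block or on 1 scan day alone. Of the 26, between 22 (normexp) and 26 kept it.

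In counts of the 15 member probes, Per3 4/4 cortex (5) gave 3 with centering on the median, 8 with normexp, 3 with no filter and 3 with scan day as a block; Per3 4/4 hypothalamus (6) and Per3 5/5 hypothalamus (6) gave 0 with scan day as a block, and the latter 3 with normexp. Per3 5/5 cortex (1) gave 2 with normexp and 2 with the replicate block, where Dbp was added; equal numbers did not pair mice of different genotypes (r = -0.42 to 0.518), and the block changed no other count by over 1.5 times. All 4 gave 0 with slide as a fixed block and 0 on 1 scan day alone, where fewer arrays or degrees of freedom were left. No slide held both Per3 5/5 and WT arrays, and few held both Per3 4/4 and WT arrays. Slide and genotype could therefore not be told apart directly for Per3 5/5 against WT, and barely for Per3 4/4 against WT. Leaving out 1 mouse gave 3 to 6 in Per3 4/4 cortex (3 without Per3 4/4 replicates 1, 2, 3 or 4 or WT replicates 1, 2 or 4), 3 to 6 in Per3 4/4 hypothalamus (3 without Per3 4/4 replicate 1), 1 to 4 in Per3 5/5 cortex (4 without Per3 5/5 replicate 8) and 5 to 7 in Per3 5/5 hypothalamus.

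The scaling moved the balance of directions over all probes. Called probes were higher in 59.4%, 68.4%, 54.8% and 54.6% of cases (Per3 4/4 and Per3 5/5 cortex, then hypothalamus), and in 34.2%, 19.2%, 31.8% and 34.5% with centering on the median. With quantile normalization the shares were 52.7%, 47.0%, 50% and 49.2%, and with normexp 83.8%, 84.7%, 63.7% and 54.7%. The median of all probes moved with normexp from 0.02 to 0.22 in Per3 4/4 cortex and from 0.02 to 0.16 in Per3 4/4 hypothalamus, and with centering from 0.06 to -0.05 in Per3 5/5 cortex.

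Of the 8 genes, 3 correlated between tissues and 0 after genotype and scan day. Of the correlations between tissues that were near or below 0, Hlf (r = -0.02) gave 0.016 with centering and 0.60 on scan day 1, and Rora (r = -0.14) gave 0.016 without 2 mice and 0.71 on scan day 1. The moderate ones of Rorb (r = 0.43) and Tef (r = 0.46) turned to -0.023 and -0.22 on scan day 2. The causes were not tested. WT arrays were brighter at the median than those of the other genotypes. Dim probes include Nr1d1 A_52_P130961 and the called probes Tef A_51_P450561, Tef A_52_P173309 and Nr1d1 A_52_P130952. What the brightness contributed to the differences of these probes was not tested.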
